A study of Bos taurus with 13 samples.

Results

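Extracellular vesicle (EV)-coupled bta-miR-320a, bta-miR-1246, bta-miR-1839 and bta-miR-484, 4 miRNAs that are made outside the usual Drosha path or cut from other small RNAs, were followed through bovine follicular fluid. They were taken by name from the deposited tables and are 4 of the 311 miRNAs listed in any library. All 4 were listed for every group, as 262 miRNAs were, and all 4 passed the filter on low values, as 247 of those 262 did. The RNA came from vesicles pelleted by ultracentrifugation from the fluid of large follicles.

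Most miRNAs are cut from a long transcript by the nuclear enzyme Drosha and then by Dicer in the cytoplasm. The hairpins of miR-320a and miR-484 are instead transcribed as short capped RNAs that already have the length Dicer takes, and so they need no Drosha cut. miR-1246 has been traced in human cells to fragments of the U2 small nuclear RNA, a part of the spliceosome, and miR-1839 belongs to the miRNAs whose hairpin resembles a small nucleolar RNA. miR-320a and miR-1246 are frequent members of the small RNA reported from vesicles of many cell types.

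Every animal was a female Holstein Friesian, and the sources used here give no drug treatment or genetic change. Transient cows (TCs), which were in negative energy balance early after calving and in positive balance later, were sampled at weeks 5 and 6 (3 libraries from pools of 11 cows) and at weeks 9 and 10 (3 libraries from pools of 7 cows). Always Negative cows (ANCs) and Always Positive cows (APCs) were sampled at weeks 5 and 6, with 2 libraries from 2 cows in each group, and heifers, which had never calved and were in positive balance, gave 3 libraries from 8 animals. The libraries are pools, how the animals were divided among them is not given in the sources used here, and a p-value therefore measures the spread between pools. The comparisons ask whether these miRNAs go with energy balance among cows and with lactation against heifers. As heifers had never calved, lactation cannot be told apart from having calved. In TCs, energy balance changed together with the weeks after calving, and these cannot be told apart.

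The deposited values were CPM (reads of a miRNA scaled to a common library total), and the whole reads behind them were recovered for all 13 libraries. The libraries held 145030 to 421435 miRNA reads (median 327359), with the ANCs at 145030 and 222091, the APCs at 327359 and 421435 and the heifers between 183575 and 379970. A count of 3 reads, taken as the floor, was worth 7.91 to 18.96 CPM, and all 4 miRNAs were far above it in every library. Levels below are CPM after scaling all 13 libraries together by TMM, the trimmed mean of M-values. CPM are relative, so fewer vesicles of one source and less of a miRNA per vesicle cannot be told apart. Ovarian follicle miRNAs (6 of 6 listed, among them miR-202 and miR-424-5p) were present in every library, with a summed level between 4950 and 11590 CPM.

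In the RefSeq gene table of ARS-UCD2.0, which is another assembly than the one the authors mapped to, 5 loci carry these 4 names. bta-miR-320a has 2 of them, MIR320A-1 between the protein-coding genes PHYHIP and POLR3D and MIR320A-2 inside RNF180, and a read of the mature miRNA does not tell them apart. MIR484 lies between MARF1 and NDE1, MIR1246 between MBNL1 and SUCNR1, and MIR1839 inside MROH1. Reads of fragments that share bases with miR-1246 or miR-1839, such as pieces of the small nuclear and nucleolar RNAs, could be counted with them, and how the authors' annotation split such reads is not given in the sources used here.

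bta-miR-320a was one of the most abundant vesicle miRNAs, the first by reads in 3 of the 13 libraries and among the first 10 in 11 of them. Its level was 135500 and 158800 CPM in the 2 APC libraries, 90940, 41360 and 168800 CPM in the early TCs (those of weeks 5 and 6, replicates 1 to 3 in order), and 44480 and 92190 CPM in the ANCs. It was 23420, 55830 and 27720 CPM in the late TCs (weeks 9 and 10) and 28410, 20180 and 54420 CPM in the heifers. The APC libraries and replicate 3 of the early TCs were thus the highest, heifer replicate 2 the lowest, and the highest level was 8.37 times the lowest. By group mean the order was APCs, early TCs, ANCs, late TCs and heifers, and the libraries of each neighbouring pair in that order overlapped.

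bta-miR-1246 varied most, by 27.4 times between its lowest and highest library. The APC libraries had 29100 and 38270 CPM, the early TCs 10360, 3507 and 22720 CPM, and the ANCs 2298 and 11900 CPM. The late TCs had 1398, 17180 and 11080 CPM and the heifers 4171, 3066 and 8458 CPM. Both APC libraries lay above all 11 others, whereas replicates of ANCs, early TCs and late TCs were far apart within their own group. By mean the APCs (33680 CPM) were followed by the early TCs (12190 CPM), the late TCs (9888 CPM), the ANCs (7101 CPM) and the heifers (5232 CPM), and every neighbouring pair but the first overlapped.

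bta-miR-1839 was at 13350 and 12940 CPM in the APCs, at 6703, 4904 and 16110 CPM in the early TCs and at 6553 and 9494 CPM in the ANCs. It was at 3821, 4956 and 4568 CPM in the late TCs and at 2772, 2277 and 6189 CPM in the heifers. Early TC replicate 3 was the highest library and heifer replicate 2 the lowest, as for bta-miR-320a. The order of group means was also that of bta-miR-320a, and among neighbours in it only the ANCs and the late TCs did not overlap.

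bta-miR-484 was scarce, with 32 to 124 reads a library, which alone gives a counting error of 8.98% to 17.7%. Its level was 109.8 and 187.0 CPM in the APCs, 205.6, 281.6 and 394.9 CPM in the early TCs and 233.7 and 234.3 CPM in the ANCs. It was 145.9, 365.8 and 325.5 CPM in the late TCs and 192.7, 177.3 and 285.7 CPM in the heifers. The APCs had the lowest mean of the 5 groups (148.4 CPM), the reverse of their place for the other 3 miRNAs, and all neighbours in the order of means overlapped.

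**Figure D1:**
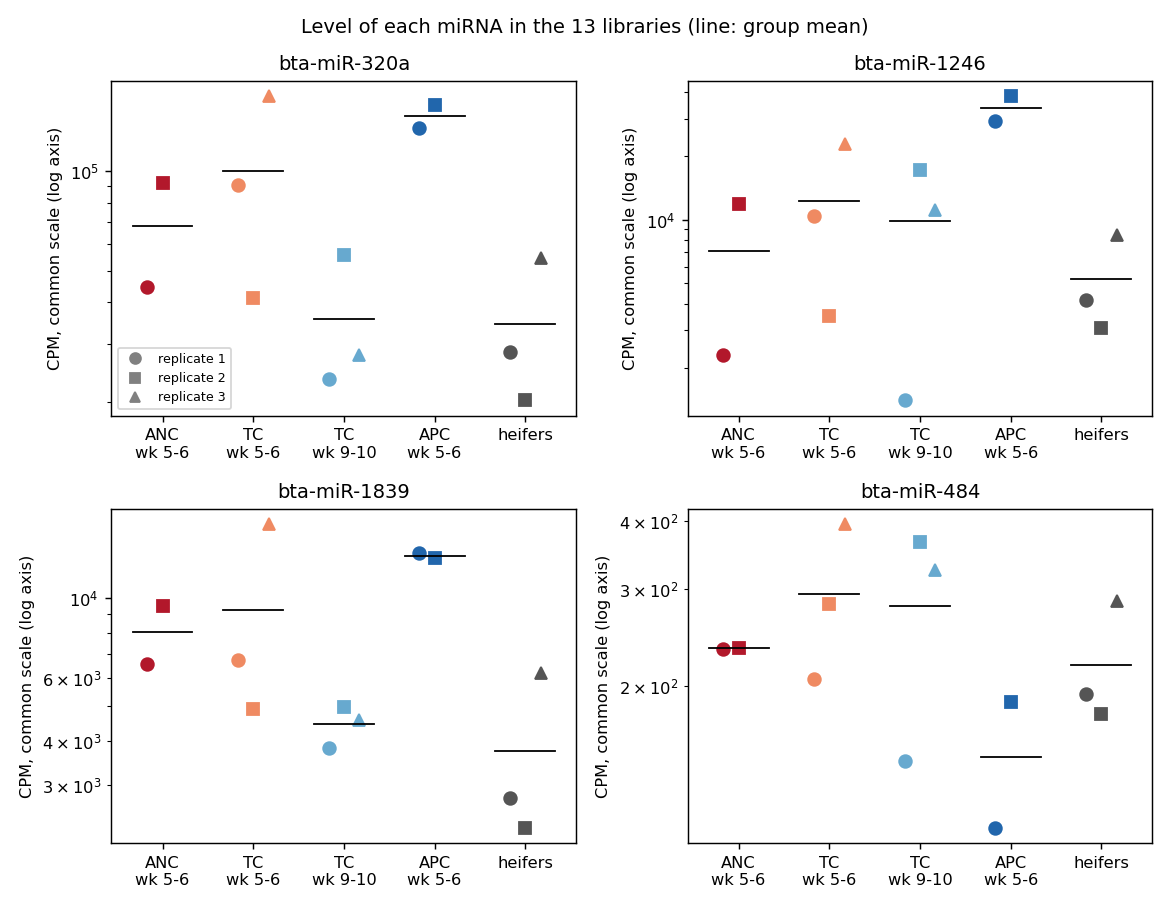
Level of bta-miR-320a, bta-miR-1246, bta-miR-1839 and bta-miR-484 in each of the 13 libraries, in CPM on a common scale (log axes that differ between panels), by group, with marker shape for the replicate number and a line at the group mean. For bta-miR-1246 both APC libraries, at 29100 and 38270 CPM, lie above all others, and for bta-miR-484 the APCs have the lowest mean.

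Together the 4 miRNAs took 14.9% to 15.9% of the reads in the APCs, 4.94% to 16.7% in the early TCs and 6.09% to 11.7% in the ANCs. They took 3.31% to 7.69% in the late TCs and 2.71% to 7.42% in the heifers. bta-miR-320a alone accounted for 2.13% to 13.6% of a library, bta-miR-1246 for 0.161% to 2.72%, bta-miR-1839 for 0.240% to 1.29% and bta-miR-484 for at most 0.0392%. Both APC libraries held a larger share than any heifer library.

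**Figure D2:**
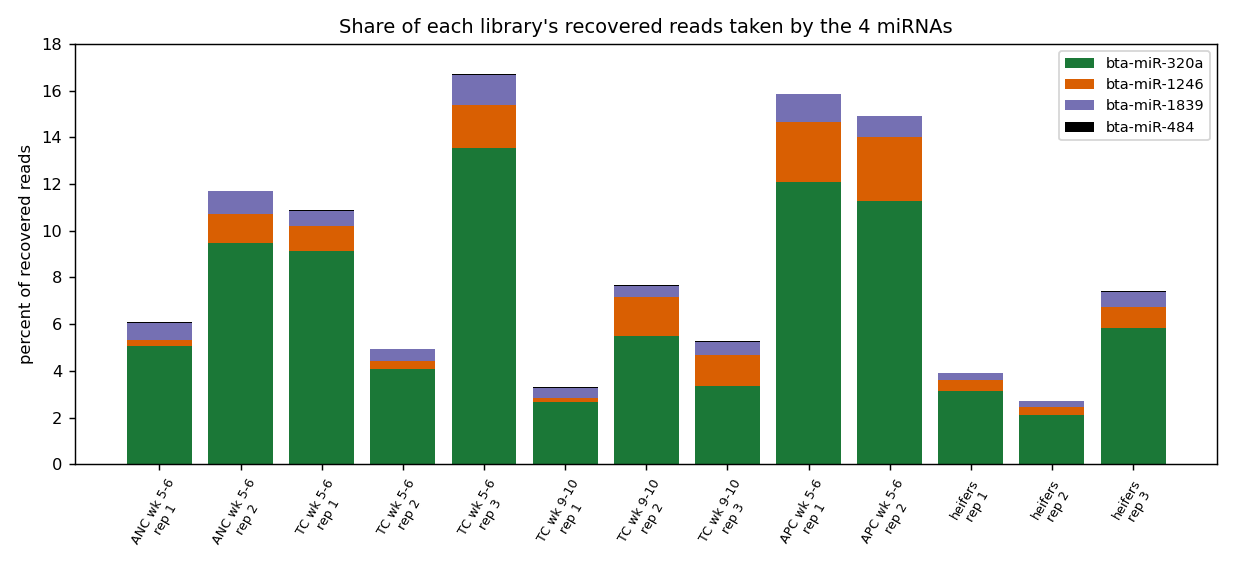
Percent of the recovered miRNA reads of each library taken by each of the 4 miRNAs, stacked, for the 13 libraries ordered by group. The green part, bta-miR-320a, makes up most of each bar, and the APC bars reach 14.9% and 15.9% against at most 7.42% in the heifers.

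Within groups, the SD between libraries on the log2 scale was 1.38 for bta-miR-1246, a spread that 97.2% of the 247 miRNAs did not exceed. It was 0.76 for bta-miR-320a, 0.61 for bta-miR-1839 and 0.49 for bta-miR-484, against a median of 0.57 over the 247 miRNAs. For bta-miR-484 the counting error is a part of that spread.

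Among the cow groups, APCs, which made milk without an energy deficit, had the most of these 4 miRNAs called against heifers. 3 of the 4 miRNAs were called higher, where called means a log2 fold change of at least 1 with p below 0.05 and an adjusted p of at most 0.25 in limma, the thresholds that the study's methods set. Over all miRNAs tested, 22 of 233 (9.44%) were called higher and 12.4% in either direction. bta-miR-1246 was 7.78-fold higher, a log2 fold change of 2.96 (SE 0.50, limma adjusted p = 0.0568). bta-miR-320a was 5.19-fold higher (log2 fold change 2.37, SE 0.47, limma adjusted p = 0.0568) and bta-miR-1839 4.30-fold higher (log2 fold change 2.11, SE 0.51, limma adjusted p = 0.0678). For each of these 3, both APC libraries were above all 3 heifer libraries, a lack of overlap that 36.1% of the 233 miRNAs shared.

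bta-miR-484 did not pass the test between APCs and heifers (log2 fold change -0.41, 95% interval -1.40 to 0.58, limma adjusted p = 0.637). Its interval includes both a fall of more than 1 and a rise of more than 0.5 on the log2 scale. The median log2 fold change of the 4 miRNAs was 2.24 and that of all 233 was 0.03. By exact two-sided permutation of the libraries, p was 0.1 for bta-miR-320a and bta-miR-1246, which is the smallest that 2 against 3 libraries allow, and 0.2 for bta-miR-1839. Adjusted over the 40 such tests of these miRNAs, these p-values were all 0.635.

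The calls of bta-miR-320a and bta-miR-1839 depended on heifer replicate 1. Without it limma called 3 of all 230 miRNAs, against 29 of 233 with it. Of the 4, only bta-miR-1246 was then called (log2 fold change 2.84, limma adjusted p = 0.234). bta-miR-320a (2.27, limma adjusted p = 0.262) and bta-miR-1839 (1.93, limma adjusted p = 0.275) were not. Without heifer replicate 2 or 3 all 3 stayed called. Over the 12 other settings tried, bta-miR-320a kept a log2 fold change between 1.79 and 2.80, bta-miR-1246 one between 2.37 and 3.40 and bta-miR-1839 one between 1.52 and 2.57. The limma, edgeR and DESeq2 adjusted p over those settings was at most 0.0946, 0.183 and 0.129 in that order, and leaving out other libraries gave values down to 0.0107, 0.0107 and 0.0166. Scaling to total reads moved the median of all miRNAs to -0.54 and turned the calls over all miRNAs from 22 higher and 7 lower to 14 higher and 49 lower, with bta-miR-320a, bta-miR-1246 and bta-miR-1839 still called higher, at 1.79, 2.37 and 1.52. The calls over all miRNAs were 21 higher and 28 lower with the deposited values, and 20 higher and 33 lower with total reads without these 4 miRNAs.

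Of the marker levels that follow, only the leukocyte sum separated these groups, and the others overlapped. The summed level of 6 leukocyte miRNAs was 2144 to 3971 CPM in APCs and 4868 to 6077 CPM in heifers, with none of the 5 tested called, and that of 2 red cell miRNAs was 2137 to 8934 CPM against 1717 to 3958 CPM. The liver miRNA miR-122 was at 631.3 to 5858 CPM in APCs and 5369 to 17620 CPM in heifers, and 6 epithelial miRNAs summed to 5737 to 30180 CPM and 14240 to 22230 CPM, with 1 called lower. No listed marker was at 0 in either group. The part of these in the differences was not tested. The day of RNA measurement, which the study's supplement lists for all libraries but APC replicate 2, goes with the replicate number. Between replicates 1 the difference was 2.25 for bta-miR-320a, 2.80 for bta-miR-1246 and 2.27 for bta-miR-1839 on the log2 scale, and between the remaining replicates it was 2.26, 2.91 and 1.78.

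ANCs, which stayed in energy deficit, differed from heifers in 1 of the 4 miRNAs. bta-miR-1839 was called 2.47-fold higher (log2 fold change 1.30, SE 0.51, limma adjusted p = 0.193), in a comparison where 14 of 215 miRNAs (6.51%) were called higher and 18.6% in either direction. Both ANC libraries, at 6553 and 9494 CPM, were above the 3 heifer libraries, as 47.4% of all miRNAs showed a lack of overlap in one direction or the other. bta-miR-320a was not called, as its unadjusted p was above 0.05 (log2 fold change 1.11, SE 0.52, limma adjusted p = 0.245), with 1 of 2 ANC libraries above all heifers. The log2 fold change was 0.22 (95% interval -1.49 to 1.94) for bta-miR-1246 and 0.21 (-0.68 to 1.11) for bta-miR-484, both with an adjusted p in limma above 0.7. Over all miRNAs the calls were 14 higher and 26 lower, but 9 higher and 29 lower with DESeq2 size factors and 4 higher and 41 lower with the deposited values.

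The call of bta-miR-1839 was lost when ANC replicate 1, ANC replicate 2, heifer replicate 1 or heifer replicate 2 was left out, and no other of the 4 was then called. Without heifer replicate 1 limma called 6 of all 222 miRNAs, and without heifer replicate 2 it called 17 of 200. The ANC libraries held 145030 and 222091 reads, the former the fewest of the 13, and many markers differed from heifers. The leukocyte sum was 744.8 to 1580 CPM against 4868 to 6077 CPM in heifers, with 5 of 5 tested members called lower, and miR-122 was at 328.8 to 2926 CPM and called lower. The red cell sum was 130.7 to 1145 CPM with 2 of 2 called lower and miR-451 at 0 in ANC replicate 1, whereas the ovarian follicle sum was 11330 to 11590 CPM against 5165 to 8776 CPM with 3 of 6 called higher. Of 6 epithelial miRNAs 3 were called lower. The part of these in the result was not tested.

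TCs at weeks 5 and 6, in negative balance at that time, had 0 of the 4 miRNAs called against heifers, where limma called 16 of 230 miRNAs (6.96%), 1.74% higher and 5.22% lower, and 17.4% had an unadjusted p below 0.05. bta-miR-320a had a log2 fold change of 1.44 (SE 0.59, limma adjusted p = 0.269) and bta-miR-1839 of 1.25 (SE 0.54, limma adjusted p = 0.285). For both, 2 of 3 TC libraries were above all heifers and replicate 2 was not. The log2 fold change was 0.97 (95% interval -0.68 to 2.62) for bta-miR-1246 and 0.40 (-0.45 to 1.24) for bta-miR-484. Libraries of the same replicate number deviated together in these groups, a pairing read from these data alone. With the replicate number as a block bta-miR-320a (1.44, SE 0.18, limma adjusted p = 0.0246) and bta-miR-1839 (1.25, SE 0.16, limma adjusted p = 0.0246) were called. The block called 29 of all 230 miRNAs, with 70 at an unadjusted p below 0.05. Over the other settings the adjusted p of bta-miR-320a and bta-miR-1839 went up to 0.372. edgeR's quasi-likelihood test on the recovered reads called 0 of the 4 and 15 of all 230. DESeq2 called bta-miR-320a and bta-miR-1839, among 36 of all 230.

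Here too 1 library decided the count. Without TC replicate 2, 3 of the 4 and 46 of all 236 miRNAs were called. Without heifer replicate 3, 2 of the 4 and 29 of all 233 were called. With every library kept, the calls over all miRNAs were 4 higher and 12 lower, but 6 higher and 7 lower with DESeq2 size factors. The leukocyte sum was 2762 to 3063 CPM in these TCs, below all heifers, with 3 of 5 tested called lower. miR-122 was at 4212 to 5712 CPM against 5369 to 17620 CPM in heifers and was not called. The red cell (750.5 to 5583 CPM), epithelial (6177 to 31170 CPM, 1 called lower) and ovarian follicle sums (4950 to 9865 CPM) overlapped with heifers. Their part was not tested.

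TCs at weeks 9 and 10, by then in positive balance, had 0 of the 4 called against heifers, as 0 of 227 miRNAs were called by limma, 0 by edgeR and 14 by DESeq2, while 24 (10.6%) had an unadjusted p below 0.05 in limma. The log2 fold change was 0.12 (95% interval -0.89 to 1.13) for bta-miR-320a, 0.43 (-0.46 to 1.32) for bta-miR-1839, 0.32 (-0.62 to 1.26) for bta-miR-484 and 0.48 (-1.49 to 2.45) for bta-miR-1246. For all 4 miRNAs the late TC libraries overlapped with those of heifers, and 15.4% of the 227 did not overlap.

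Between the 2 times of the TCs, 0 of 224 miRNAs were called by limma, 0 by edgeR and 1 by DESeq2, and 12 (5.36%) had an unadjusted p below 0.05 in limma. bta-miR-320a was one of those 12, with a log2 fold change of -1.36 from weeks 5 and 6 to weeks 9 and 10 (95% interval -2.62 to -0.10, limma adjusted p = 0.573). Replicates 1 and 3 at the later time were below all earlier libraries and replicate 2 was not. The log2 fold change was -0.86 (95% interval -1.88 to 0.16) for bta-miR-1839, -0.53 (-2.67 to 1.62) for bta-miR-1246 and -0.11 (-1.21 to 0.98) for bta-miR-484. bta-miR-1839 did not overlap between the times when these 6 libraries were scaled on their own, as 13.4% of all miRNAs did not, but did on the common scale. Without replicate 2 of the early TCs, 2 of the 4 and 22 of all 228 miRNAs were called. Whether the same cows gave both sets of pools is not given in the sources used here.

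ANCs and APCs differed in energy balance at the same weeks after calving. limma and edgeR called 0 of 207 miRNAs and DESeq2 called 6, and 17 (8.21%) had an unadjusted p below 0.05 in limma. bta-miR-1246 was among those 17 and was 6.21-fold higher in APCs (log2 fold change -2.64 for ANCs minus APCs, 95% interval -4.78 to -0.49, limma adjusted p = 0.535). The log2 fold change was -1.16 (95% interval -2.42 to 0.10) for bta-miR-320a, -0.70 (-1.72 to 0.32) for bta-miR-1839 and 0.72 (-0.46 to 1.90) for bta-miR-484. For all 4 the groups did not overlap, with bta-miR-484 higher in ANCs and the other 3 lower, and 43.5% of the 207 miRNAs likewise did not overlap. With 2 against 2 libraries the exact permutation p cannot go below 0.333. DESeq2 called bta-miR-1246 (-2.26, adjusted p = 0.223, in a range from 0.179 to 0.555 over the 12 settings). Leaving out a pool here leaves 1 library in a group. For bta-miR-1246 the log2 fold change was -3.84 without ANC replicate 2 and -1.43 without ANC replicate 1. It was -2.79 without APC replicate 1 and -2.48 without APC replicate 2.

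Some of the marker sums separated these groups as well, in a comparison where 43.5% of the 207 miRNAs did not overlap. The red cell sum was 130.7 to 1145 CPM in ANCs and 2137 to 8934 CPM in APCs, with miR-451 at 0 in ANC replicate 1 and at a log2 fold change of -4.52 (limma adjusted p = 0.535). The leukocyte sum was 744.8 to 1580 CPM against 2144 to 3971 CPM, and the ovarian follicle sum 11330 to 11590 CPM against 5167 to 7466 CPM, each with 0 members called. The epithelial sum (5138 to 8222 CPM against 5737 to 30180 CPM) and miR-122 (328.8 to 2926 CPM against 631.3 to 5858 CPM) overlapped. Their part in the differences was not tested.

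Against TCs at the same weeks, neither ANCs nor APCs had any of the 4 called, and limma called 0 of 225 miRNAs in both comparisons. edgeR also called 0 in both, and DESeq2 called 0 with ANCs and 1 with APCs. In limma 18 miRNAs (8%) had an unadjusted p below 0.05 with ANCs and 6 (2.67%) with APCs, bta-miR-1246 among the latter. bta-miR-1246 had a log2 fold change of 1.88 in APCs (95% interval 0.02 to 3.75, limma adjusted p = 0.993), with both APC libraries above all 3 TC libraries. bta-miR-484 had -0.91 (95% interval -2.06 to 0.25), with both APC libraries below all TC libraries, and 15.1% of all miRNAs did not overlap in that comparison. In ANCs the 4 log2 fold changes lay between -0.86 and -0.05, and the libraries overlapped for each of the 4, while 27.1% of all miRNAs did not overlap.

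The mean of the cow groups (all 10 cow libraries), each group weighing the same, was set against the 3 libraries of heifers. bta-miR-1839 was called 2.30-fold higher (log2 fold change 1.20, SE 0.37, limma adjusted p = 0.139) and bta-miR-320a 2.28-fold higher (log2 fold change 1.19, SE 0.45, limma adjusted p = 0.168). In this comparison 5 of 247 miRNAs (2.02%) were called higher and 8.10% in either direction. For each of the 2, 6 of the 10 cow libraries lay above all heifers and 0 below all heifers, so the groups overlapped, and 4.45% of the 247 miRNAs did not. The exact two-sided permutation p, with each library weighing the same, was 0.0350 for bta-miR-1839 and 0.126 for bta-miR-320a. It was 0.635 for both when adjusted over the 40 tests. bta-miR-1246 had a log2 fold change of 1.09 (95% interval -0.58 to 2.75) and bta-miR-484 of 0.06 (-0.67 to 0.79). DESeq2 called bta-miR-1246 in addition (1.37, adjusted p = 0.232, in a range from 0.232 to 0.463 over the 11 settings that keep every library). Without heifer replicate 1 or heifer replicate 2 none of the 4 was called, limma then calling 2 and 0 of all miRNAs, with 22 and 21 at an unadjusted p below 0.05. These 10 libraries share their heifers with the comparisons above. Of 6 leukocyte miRNAs 5 were called lower in cows, and miR-122 was too. Their part was not tested.

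The mean of APCs and late TCs (5 libraries, positive balance) was set against that of ANCs and early TCs (5 libraries, negative balance). Each group weighed the same in these fits. Of 241 miRNAs, 0 were called by limma, 0 by edgeR and 1 by DESeq2, and 4 (1.66%) had an unadjusted p below 0.05 in limma. The log2 fold change was -0.04 (95% interval -1.0 to 0.92) for bta-miR-320a, -0.01 (-0.77 to 0.74) for bta-miR-1839, -0.36 (-1.14 to 0.43) for bta-miR-484 and 1.12 (-0.61 to 2.84) for bta-miR-1246. For bta-miR-320a and bta-miR-1839 the positive side held both high libraries, those of APCs, and low ones, those of late TCs. With each library weighing the same, the log2 difference was -0.35 for bta-miR-320a and -0.23 for bta-miR-1839. It was -0.35 for bta-miR-484 and 0.74 for bta-miR-1246. The exact two-sided permutation p was 0.595, 0.635, 0.349 and 0.484 in that order.

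**Figure D3:**
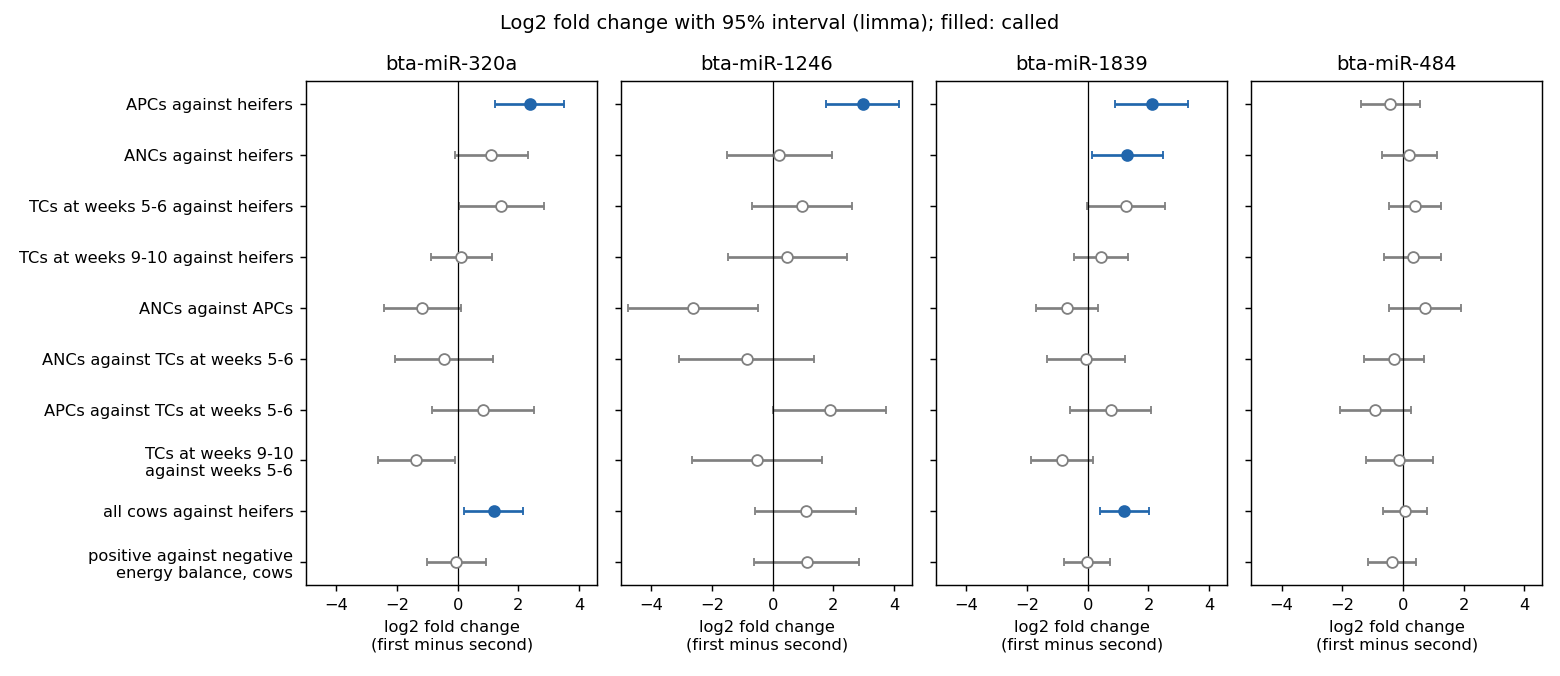
Log2 fold change (first group minus second) of each of the 4 miRNAs in the 10 comparisons, with its 95% interval from limma. Filled points are called, and these are bta-miR-320a, bta-miR-1246 and bta-miR-1839 in APCs against heifers, bta-miR-1839 in ANCs against heifers, and bta-miR-320a and bta-miR-1839 in all cows against heifers.

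The ratio of 2 miRNAs within a library does not depend on how libraries are scaled. These ratios were chosen after the levels had been seen. The ratio of bta-miR-320a to bta-miR-1839 reads varied least, from 6.07 to 13.6 over the 13 libraries (SD 0.36 on the log2 scale), although each of the 2 varied over 7-fold. The ratio of bta-miR-320a to bta-miR-484 ranged from 85.2 to 1235. It was 849.2 and 1235 in the APCs, 113.8 to 190.5 in the heifers, 190.3 to 393.4 in the ANCs, 146.9 to 442.3 in the early TCs and 85.2 to 160.5 in the late TCs. Both APC libraries were thus above all 11 others.

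Between APCs and heifers the log2 ratio of bta-miR-320a to bta-miR-484 differed by 2.80 (exact two-sided permutation p = 0.1, the smallest possible, and 0.4 adjusted over the 24 ratio tests). The ratio of bta-miR-320a to bta-miR-1246 was 4.15 to 4.66 in the APCs, below the 6.43 to 6.81 of the heifers, a difference of -0.59 on the log2 scale with the same p. It was 7.74 to 19.4 in the ANCs, 7.43 to 11.8 in the early TCs and 2.50 to 16.8 in the late TCs. In the late TCs the ratio was 16.8 in replicate 1, 3.25 in replicate 2 and 2.50 in replicate 3. None of the 24 ratio tests, over 6 pairs and 4 comparisons, had an adjusted p below 0.4.

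**Figure D4:**
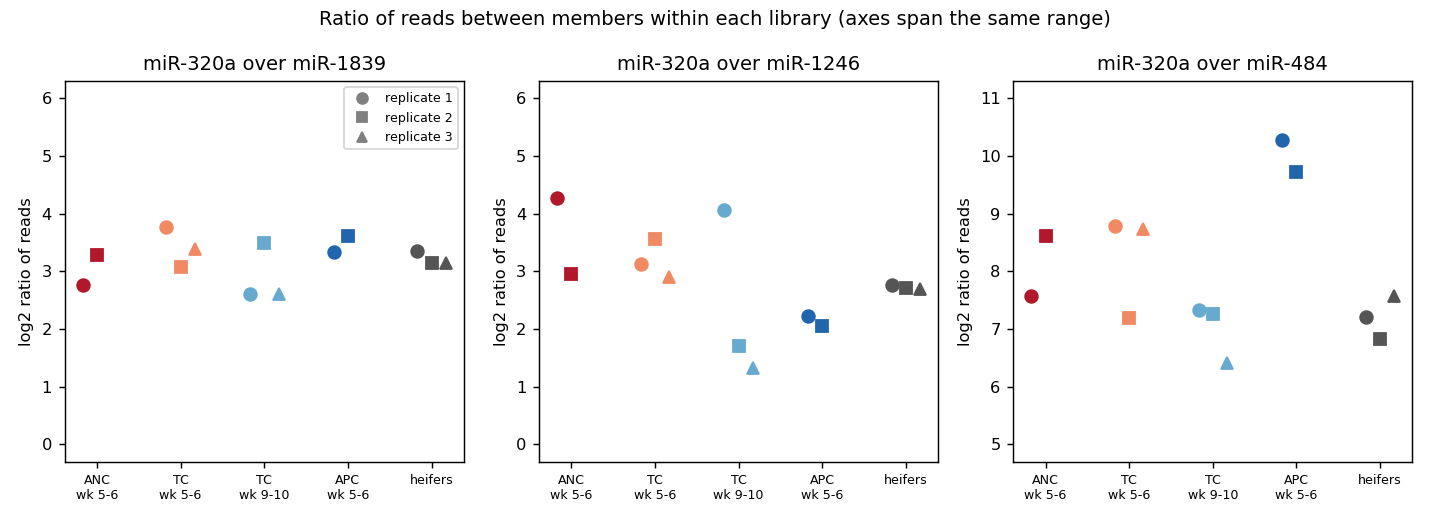
Log2 ratio of reads of bta-miR-320a to those of bta-miR-1839, bta-miR-1246 and bta-miR-484 within each of the 13 libraries, by group, with marker shape for the replicate number and axes that span the same range. The ratio to bta-miR-1839 spreads least (6.07 to 13.6 before taking logs), and that to bta-miR-484 is highest in both APC libraries (849.2 and 1235).

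Over the 13 libraries, which share groups, depth and scaling, the log2 levels of bta-miR-320a and bta-miR-1839 had a Pearson correlation of 0.95, those of bta-miR-320a and bta-miR-1246 of 0.83 and those of bta-miR-1246 and bta-miR-1839 of 0.74. bta-miR-484 had a correlation of 0.05 to 0.16 with the other 3. After subtracting group means, it had 0.57 to 0.73 with them. Its level was lowest in the group where the other 3 were highest. These are descriptions of 13 libraries.

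The miRNAs most like bta-miR-320a over the 13 libraries were bta-miR-23b-3p (Pearson r = 0.974), bta-miR-103 (0.969) and bta-miR-22-3p (0.967), among 246 others whose median r with it was -0.12. Those most like bta-miR-1246 were bta-miR-23a (0.903), bta-miR-23b-3p (0.893) and bta-miR-107 (0.887), and those most like bta-miR-1839 were bta-miR-2284x (0.976), bta-miR-320a (0.949) and bta-miR-873 (0.946). These were picked on the same libraries, which largely fixes that they share the difference between APCs and heifers, and they were called higher there, with log2 fold changes from 1.56 for bta-miR-2284x to 3.01 for bta-miR-873. The nearest to bta-miR-484 were less close, bta-miR-1343-3p (0.779), bta-miR-29a (0.718) and bta-miR-30a-5p (0.699), and none of these 3 was called between APCs and heifers.

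Apart from miR-451, the other miRNAs of unusual origin that were looked for had few reads in these vesicles. miR-451 had 224 and 43 reads in the APCs, where bta-miR-484 had 32 and 56, but 0 and 5 in the ANCs. Of 11 looked for, 5 were listed for any group, and only miR-451 and miR-877 were tested in every comparison, with miR-1224 added when all cows were set against heifers. miR-877 and miR-1224 are mirtrons, cut out by splicing. bta-miR-320b, the paralog of bta-miR-320a, had 1 to 8 reads in the cow groups (6 and 7 in APCs, 1 and 1 in ANCs) and was not listed for heifers, against 5748 to 49176 reads of bta-miR-320a. bta-miR-1291, from a small nucleolar RNA, was listed for ANCs (1 and 1 reads) and APCs (5 and 5 reads) only. These counts are at or near the floor. miR-451, which is matured by Argonaute without Dicer, was the only one called, lower in ANCs against heifers at a log2 fold change of -3.82 (limma adjusted p = 0.0749), with 0 and 5 reads in ANCs against 75, 67 and 45 in heifers. miR-451 is also a red cell marker.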

How the data were processed

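Small RNA of EVs was measured in 13 pools (TCs at weeks 5 and 6, n = 3, TCs at weeks 9 and 10, n = 3, ANCs, n = 2, APCs, n = 2, and heifers, n = 3), grouped by the labels. The authors prepared libraries with the QIAseq kit, trimmed them with Cutadapt 1.11, mapped them to UMD3.1 with Bowtie2 2.2.2, annotated them against miRBase and scaled them with TMM. The deposited values are TMM-normalized CPM, with totals of 822818.3 to 1251163.8 per library, and 7 of the files were recorded as signal because their deposited totals exceed what CPM sum to. Files of a group list the same miRNAs. 1 read is the step between low values, and 3681 of 3681 values came out within 0.1 read of a whole number. No 2 replicates differed by as little as counting noise. Intervals of counts cover counting error only.

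For each comparison the recovered reads of miRNAs listed for its groups were filtered (edgeR's filterByExpr, at least 10 reads and 15 in total), scaled by TMM and tested as log2(CPM + 5) with limma's trend (R 4.3.3, limma 3.58.1, edgeR 4.0.16, DESeq2 1.42.0), with Benjamini-Hochberg adjustment over all miRNAs tested. The added 5 understates changes of rare miRNAs. Exact permutation tests were two-sided. Scripts were tested on simulated reads. Named were the 4 miRNAs, the 3 most correlated with each, and a list of 11 other miRNAs of unusual origin. The miRNAs, lists and markers were chosen with earlier results of these data known. Mature sequences were not used here.

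Same-numbered replicates of early TCs and heifers deviated together (correlation 0.188 to 0.372 over the 3 pairs). That they are pairs was read from the data alone. The main limma tests used no pairs, and the pairing enters only through the replicate block. Alternatives were other scalings, pseudocounts of 1 and 20 CPM, no filter, an adjusted p of at most 0.05, edgeR's quasi-likelihood test, DESeq2, all 13 libraries in one fit, the replicate block, the day of RNA measurement and leaving out each library.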

Additional observations from a re-analysis of the deposited data

How the results depend on the processing

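Of the log2 fold changes under settings other than leaving out a pool, 463 kept their direction and their side of the thresholds, 13 gained a call, 7 lost one and 13 changed sign. With an adjusted p of at most 0.05 in limma the members called fell from 3 to 0 in APCs against heifers (at 2.37, 2.96 and 2.11 for bta-miR-320a, bta-miR-1246 and bta-miR-1839), from 1 to 0 in ANCs against heifers and from 2 to 0 in all cows against heifers. At that threshold 0 of all miRNAs were called in each of these comparisons. In ANCs against heifers 2 were called with total reads, with total reads without the 4 miRNAs, with the replicate block and with the day as a covariate, since bta-miR-320a then passed, and 0 with the deposited values as they stand. Over all 215 miRNAs these settings called 43, 42, 65, 42 and 45 in that order, against 40 in the main test. In early TCs against heifers 2 were called by DESeq2 (36 of all 230 miRNAs) and in the fit of all 13 libraries (17 of 247). With the block 2 were called there as well (29 of 230). In ANCs against APCs 1 was called by DESeq2 (6 of 207) and with the block (28 of 207). In all cows DESeq2 called bta-miR-1246 (1.37) in addition, among 25 of all 247. The day of RNA measurement, where listed, goes with the replicate number. The correlation between deviations of same-numbered replicates was 0.255 in ANCs against APCs and -0.026 to 0.106 in ANCs against heifers. The block changed no other count of members called. The cause was not tested.

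Sign changes were all of values not called. They were bta-miR-484 and bta-miR-1246 in ANCs against heifers (-0.03 and -0.03 with deposited values), bta-miR-1839 in ANCs against early TCs (0.19 with total reads, 0.15 without the 4 miRNAs, 0.41 with the block and 0.03 with the day), bta-miR-320a there (0.01 with the block), bta-miR-484 in late against early TCs (0.12, 0.03 and 0.04 with total reads, deposited values and total reads without the 4), and bta-miR-484 in all cows (-0.08, -0.03 and -0.00072 with the same). Leaving out a pool, the members called ranged from 1 to 3 in APCs against heifers (bta-miR-320a 2.06 to 2.80, bta-miR-1246 2.65 to 3.40, bta-miR-1839 1.82 to 2.57), from 0 to 2 in ANCs against heifers, from 0 to 3 in early TCs against heifers, from 0 to 2 in ANCs against APCs, from 0 to 2 in late against early TCs and from 0 to 3 in all cows against heifers. Leaving out a pool also changed the sign of bta-miR-1246 in ANCs against heifers (-1.0 to 1.49), bta-miR-320a (-0.23 to 0.52) and bta-miR-1246 (-0.20 to 1.57) in late TCs against heifers, bta-miR-320a (-1.05 to 0.18), bta-miR-1246 (-2.12 to 0.42) and bta-miR-1839 (-0.40 to 0.41) in ANCs against early TCs, bta-miR-484 (-0.39 to 0.35) and bta-miR-1246 (-1.21 to 0.63) in late against early TCs, bta-miR-484 in all cows (-0.05 to 0.26), and bta-miR-320a (-0.35 to 0.26) and bta-miR-1839 (-0.20 to 0.25) in positive against negative balance.

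The number of all miRNAs called ranged over the settings that keep every pool from 0 to 63 in APCs (29 in the report), from 0 to 65 in ANCs (40), from 0 to 36 in early TCs (16) and from 0 to 29 in all cows (20) against heifers. Leaving out a pool, these ranged from 3 to 48, 0 to 54, 0 to 46 and 0 to 35. Where the report has 0, the highest number with every pool kept and with a pool left out was 14 and 25 in late TCs against heifers, 28 and 36 in ANCs against APCs, 2 and 7 in ANCs and 1 and 4 in APCs against early TCs, 1 and 22 in late against early TCs, and 1 and 1 in positive against negative balance. A lone pool left in a group was assumed to vary like the others. The day could not be used with APCs, where 1 library has no day listed. Among the 4 miRNAs depth limits bta-miR-484 most, with 32 reads in APC replicate 1, 35 in ANC replicate 2 and 39 in heifer replicate 1.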
